A study of Ovis aries with 30 samples.

Results

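The proteasome genes of the lamb liver were taken as every gene whose symbol starts with PSMA, PSMB, PSMC, PSMD, PSME, PSMF or PSMG. The count table held 50 such genes among 31304, and 48 of them were among the 17840 genes that passed the filter on low counts. PSMB6 and PSMB11 did not pass. PSMC3IP and PSME3IP1 share the prefix, but they encode no subunit, and are kept in the counts below because the prefix selects them.

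The proteasome is the large protease that degrades proteins tagged with ubiquitin. Its core particle is a barrel of alpha and beta subunits in stacked rings. The alpha ring forms the gate, and 3 of the beta subunits, PSMB5, PSMB6 and PSMB7, carry the active sites. In cells exposed to interferon, and in leukocytes at rest, these are exchanged during assembly for PSMB8, PSMB9 and PSMB10, which gives the immunoproteasome and changes the peptides offered on class I molecules. The regulatory particle caps the core: its PSMC ATPases unfold the substrate, and its PSMD subunits bind and remove ubiquitin. Hepatocytes, which make most of the plasma proteins, depend on this machinery for protein turnover.

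Whole liver of 30 F1 lambs (Ovis aries) was profiled by RNA sequencing. The groups were 8 biosolids female, 8 control female, 7 biosolids male and 7 control male lambs. Biosolids lambs were born to ewes exposed to biosolids, which are processed sewage solids, before conception and during gestation. Strain, age at sampling and dam are not stated in the labels, and litters are not labelled, so p-values may be too small if littermates were sampled. The values are read counts per gene, given as CPM, which are counts scaled to a common library size.

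Counts outside ribosomal RNA numbered 23122793 to 50076820 in 29 lambs and 2335475 in biosolids male 8778, where 87.5% of all counts fell on ribosomal RNA. Of the hepatocyte markers of the labelled tissue, ALB, serum albumin, held 30010 to 72830 CPM. Control male 8408 carried 302 CPM of LOC101112291, against 318 to 824 CPM in the 16 females and at most 2.05 CPM in the 13 other males, although its summed chromosome Y counts (178 CPM) lay within the range of those males (164 to 223 CPM). Control female 8263 stood apart in immune genes, as given below. Main results that rest on 1 of these 3 libraries are given with and without it. Values without such a note include these 3. In whole tissue, fewer cells of a type and less RNA per cell cannot be told apart.

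The family was expressed throughout, with levels that differed widely between members. Levels of different genes are compared as TPM, which are counts divided by exon length and scaled to the same total in every lamb, with ribosomal RNA left out. PSME1, the alpha subunit of the interferon-inducible activator cap, stood highest with a median of 342 TPM over 30 lambs and a range of 203 to 1023 TPM. Among subunits not restricted to testis or thymus, and apart from PSMB6, the lowest was PSME4, another activator, with 6.84 TPM. Its annotated exons were the longest of the family, at 9527 bases.

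Within the alpha ring, medians ran between 13.5 TPM for PSMA2 and 131 TPM for PSMA7. The non-catalytic beta subunits lay between 73.5 TPM for PSMB2 and 219 TPM for PSMB1. A ring holds its subunits in equal number, and the TPM of their genes were not equal. TPM depend on the annotated exon length, which was 5278 bases for PSMA2 and 950 bases for PSMA7. In CPM, which are not divided by length, PSMA2 had a median of 27.3 over 30 lambs. That lay above PSMA1, PSMA3, PSMA4 and PSMA5 and below PSMA6 and PSMA7. Among the ATPases, PSMC6 had the lowest median (13.3 TPM) and PSMC3 the highest (146 TPM). Among the other regulatory particle subunits, PSMD12 was lowest (11.6 TPM) and PSMD3 highest (103 TPM). Among the assembly chaperones, which help build the complex and leave it, PSMD10 was lowest (6.86 TPM) and PSMG4 highest (218 TPM). PSMC6, PSMD12 and PSMD10 had the longest annotated exons of their roles (3011, 3789 and 4060 bases), and PSMG4 the shortest (499 bases). PSMA8, the alpha subunit of spermatocytes, had a median of 0.231 TPM. PSMB11, the catalytic subunit of thymic cortex, reached at most 0.131 CPM in any lamb and had a median of 0 CPM.

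**Figure D1:**
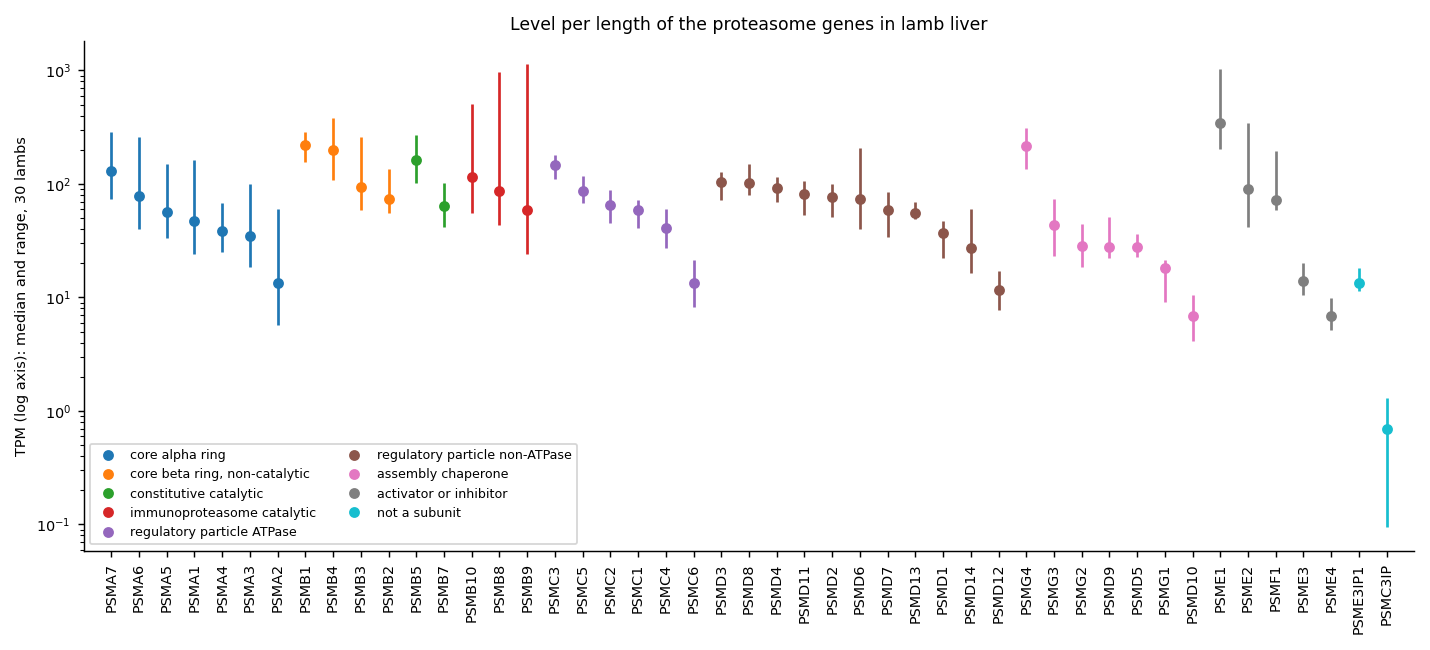
Median (point) and range over 30 lambs (line) of TPM, on a log axis, for the proteasome genes ordered by role; PSMA8, PSMB6 and PSMB11 are not drawn. PSME1 has the highest median (342 TPM), and the line of PSMB9 runs over 23.9 to 1143 TPM.

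PSMB6, the constitutive subunit with caspase-like activity, was listed at 0 in all 30 lambs. In the annotation ARS-UI_Ramb_v3.0 it lies on chromosome 11 from 26443660 to 26445879, on the minus strand. All 842 of its exon bases fall inside an exon (26441868 to 26453237) of C11H17orf114 on the plus strand, which held 37 to 1023 counts. GLTPD2, in the same exon on the minus strand, was also at 0. Across the table, 415 of 415 genes whose exon bases all lie inside exons of other genes were at 0 in every lamb, against 3881 of 25329 genes (15.3%) that share no exon base. The 0 of PSMB6 therefore gives no level for this gene. The same limit touches other members in part. AOC2, on the same strand, covers 57.2% of the exon bases of PSME3, and genes on the opposite strand cover 67.3% of those of PSMC4. Over unshared bases alone, PSMC4 had a median of 126 TPM in place of 41.3 TPM, and PSME3 of 32.4 TPM in place of 13.9 TPM.

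The constitutive catalytic subunits had ranges that overlapped among the 4 groups. PSMB5, the chymotrypsin-like subunit (chromosome 7, 21639487 to 21644701, plus strand), had in biosolids females a lowest, median and highest value of 48.9, 73.8 and 89.0 CPM, against 46.2, 69.9 and 109 CPM in control females. In biosolids males the same values were 39.2, 58.3 and 71.7 CPM, against 43.1, 50.8 and 64.9 CPM in control males. All 4 ranges overlapped, and males lay lower than females in both exposure groups by median. PSMB7, the trypsin-like subunit, had 21.2, 24.7 and 29.5 CPM in biosolids females, against 18.3, 24.2 and 39.3 CPM in control females. It had 15.7, 22.5 and 33.4 CPM in biosolids males, against 17.2, 19.5 and 25.7 CPM in control males. These ranges overlapped as well.

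The immunoproteasome subunits varied widely between lambs of a group. PSMB8 and PSMB9 lie near each other on chromosome 20 (7324795 to 7328871, minus strand, and 7338703 to 7345197, plus strand), and PSMB10 lies on chromosome 14 (34980418 to 34982946, minus strand). PSMB8, which replaces PSMB5, had 25.9, 50.1 and 58.0 CPM (lowest, median, highest) in biosolids females, against 26.2, 51.8 and 431 CPM in control females. The medians of the female groups were nearly the same, and the high end of the controls was 1 lamb, 8263. In biosolids males PSMB8 had 21.6, 29.1 and 83.8 CPM, against 22.7, 31.3 and 60.4 CPM in control males. The range of control males lay within that of biosolids males, whose highest lamb was 8778.

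PSMB9, which replaces PSMB6, had 10.6, 21.6 and 29.7 CPM in biosolids females, against 10.2, 21.7 and 299 CPM in control females. In biosolids males it had 7.66, 9.73 and 34.8 CPM, against 7.08, 10.6 and 33.2 CPM in control males. The highest value of each group again stood well above its median among controls and in biosolids males. PSMB10, which replaces PSMB7, had 23.4, 49.2 and 61.1 CPM in biosolids females, against 21.1, 47.3 and 166 CPM in control females. It had 20.0, 27.9 and 65.0 CPM in biosolids males, against 23.3, 33.2 and 63.5 CPM in control males. Lamb 8263 was the highest for all 3 genes.

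**Figure D2:**
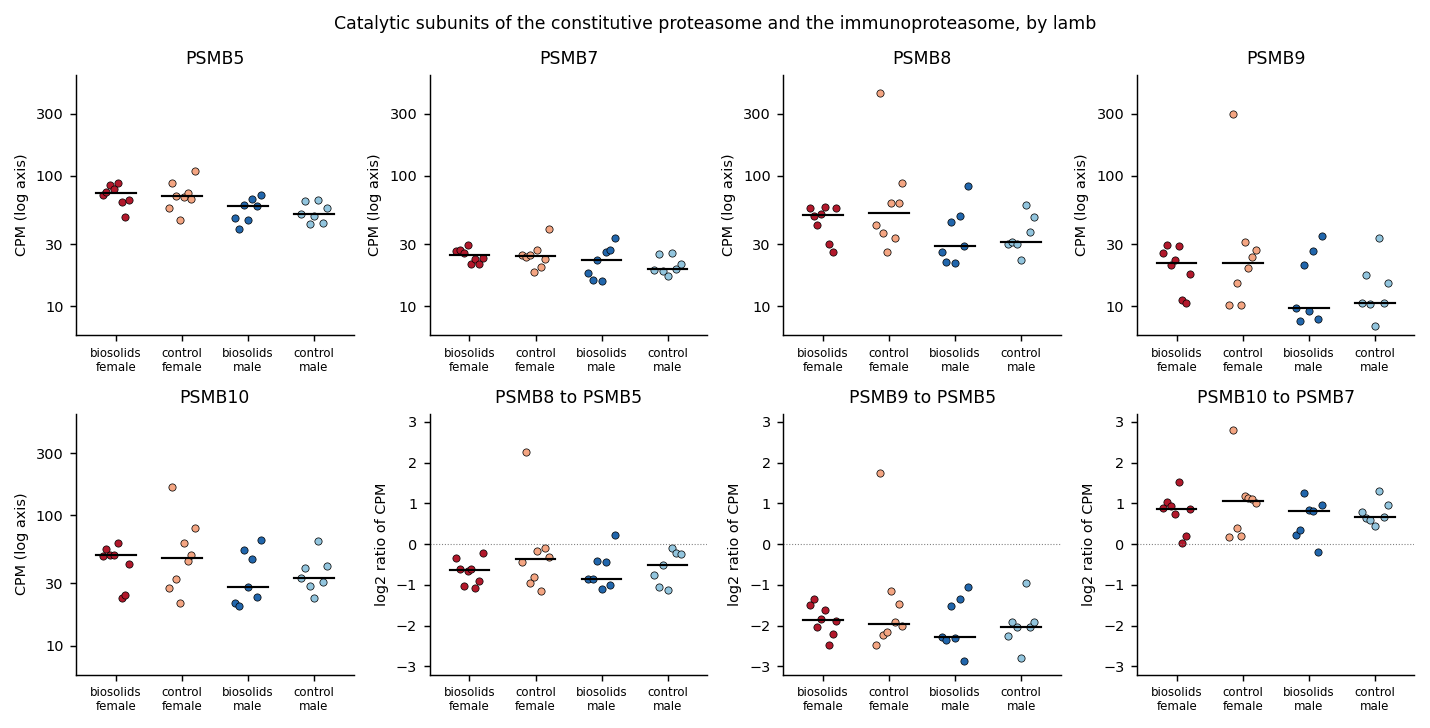
CPM (log axis) of 5 catalytic subunits and the log2 ratio of 3 immunoproteasome to constitutive pairs, with 1 point a lamb and a bar at the median of each group. Control female 8263 is the isolated high point in the panels of PSMB8, PSMB9 and PSMB10 and in the 3 ratios, and the other lambs of all groups overlap.

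Set against the constitutive subunits per length, PSMB8 stood below PSMB5 in 29 of 30 lambs, with a median TPM ratio of 0.518 and a ratio of 3.83 in control female 8263. PSMB10 stood above PSMB7 in 29 of 30 lambs, with a median TPM ratio of 1.81. PSMB9 could not be set against its own partner PSMB6, and PSMB5 was used in its place after the data were seen. The median TPM ratio of PSMB9 to PSMB5 was 0.346, and it was above 1 in 1 lamb, again 8263. A gene on the opposite strand covers 15.1% of the exon bases of PSMB5, and none of those of PSMB8 or PSMB9 are shared. Over unshared bases PSMB5 had a median of 193 TPM in place of 164 TPM, so both ratios to it would be lower.

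On the log2 scale of CPM, the ratio of PSMB8 to PSMB5 averaged -0.68 ± 0.31 in biosolids females and -0.20 ± 1.07 in control females (SD, n = 8 each), a difference of -0.48. The difference was -0.12 without control female 8263. In biosolids males the ratio averaged -0.63 ± 0.46, and in control males -0.57 ± 0.41 (SD, n = 7 each). For PSMB10 to PSMB7 the female difference was -0.23, and 0.03 without lamb 8263. The male differences, biosolids minus control, were -0.06 for PSMB8 to PSMB5, and -0.20 without lamb 8778, and -0.17 for PSMB10 to PSMB7, and -0.03 without biosolids male 8770. The male medians differed by -0.33 for PSMB8 to PSMB5, and the other way, by 0.17, for PSMB10 to PSMB7. For PSMB9 to PSMB5 the female difference was -0.40, and 0.05 without lamb 8263, while the medians differed by 0.11. Its male difference was 0.03, with -0.12 without lamb 8778 and 0.20 without control male 8408, while the medians differed by -0.24. All these differences were smaller than the pooled spread between lambs of a group, and no test was made of them.

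The 3 immunoproteasome genes went together across lambs. After removal of group means, Pearson's r of log2 CPM over 30 lambs was 0.94 for PSMB8 with PSMB9 (Spearman's rho 0.86), 0.91 for PSMB8 with PSMB10 (rho 0.88) and 0.94 for PSMB9 with PSMB10 (rho 0.94). Each of these r had a permutation p of 1e-05, the smallest that 100000 resamples can give, and an adjusted p of 1.8e-05 over the 9 pairs computed. With the 2 lambs farthest from the median left out, r stayed at 0.86, 0.88 and 0.94. PSMB5 with PSMB7 reached r = 0.76 (rho 0.71, adjusted permutation p = 1.8e-05) and 0.67 without 2 lambs.

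Immunoproteasome and constitutive subunits also varied in the same direction, less closely. No r of other gene pairs was set beside these r or those above. Libraries differed in composition, so the p-values do not show a relation particular to these subunits. PSMB8 with PSMB5 had r = 0.66 (rho 0.75, adjusted permutation p = 0.000553) and 0.71 without 2 lambs, and PSMB10 with PSMB7 had r = 0.57 (rho 0.64, adjusted permutation p = 0.00518) and 0.64 without 2 lambs. PSME1 with PSME2, the subunits of the same activator cap and neighbours on chromosome 7, had r = 0.90 (rho 0.87, adjusted permutation p = 1.8e-05) and 0.86 without 2 lambs. PSMB9 with TAP1, a peptide transporter subunit, had r = 0.80 (rho 0.60, adjusted permutation p = 0.000553) and 0.48 without 2 lambs. PSMB8 with TAP2, the other transporter subunit, had r = 0.65 (rho 0.36, adjusted permutation p = 0.0172 for r and 0.0609 for rho), and 0.27 once lambs 8263 and 8778 were left out, so that this relation rests on them.

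Of 12001 genes outside the family with at least 1 CPM on average, the 5 most like the mean of PSMB8, PSMB9 and PSMB10 over 30 lambs were CD53 (r = 0.96), PLAC8 (r = 0.96), IRF1 (r = 0.94), FCER1G (r = 0.94) and CASP8 (r = 0.93). CD53 is a leukocyte membrane protein, IRF1 a transcription factor induced by interferon, and FCER1G an immunoglobulin receptor chain of myeloid cells. Without lambs 8263 and 8313 these r lay between 0.86 and 0.92. The 5 most like the mean of PSMB5 and PSMB7 were MRPS11 (r = 0.92), MPC2 (r = 0.91), STOML2 (r = 0.89), MICOS13 (r = 0.88) and BLVRB (r = 0.88). The first 4 encode mitochondrial proteins, and BLVRB a biliverdin reductase. In each lamb all these values come from the same library, and the libraries differed in depth and composition. The r are therefore given as a description.

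The parts of the complex differed in how much lambs of 1 group varied. The median within-group SD of log2 CPM was 0.81 for the immunoproteasome catalytic genes and 0.49 for the alpha ring. It was 0.28 for the non-ATPase and 0.19 for the ATPase subunits of the regulatory particle, beside 0.42 for all genes tested and 0.30 for the family. The single widest was PSMB9 with 1.02, and PSMD13 had 0.16. Control female 8263 was the highest of all 30 lambs in 17 of the 48 genes, biosolids male 8778 in 11 and control female 8378 in 7. Biosolids male 8695 was the lowest in 9 and control male 8394 in 7. The same counts were not made over all genes tested, so they cannot be read as particular to the family.

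**Figure D3:**
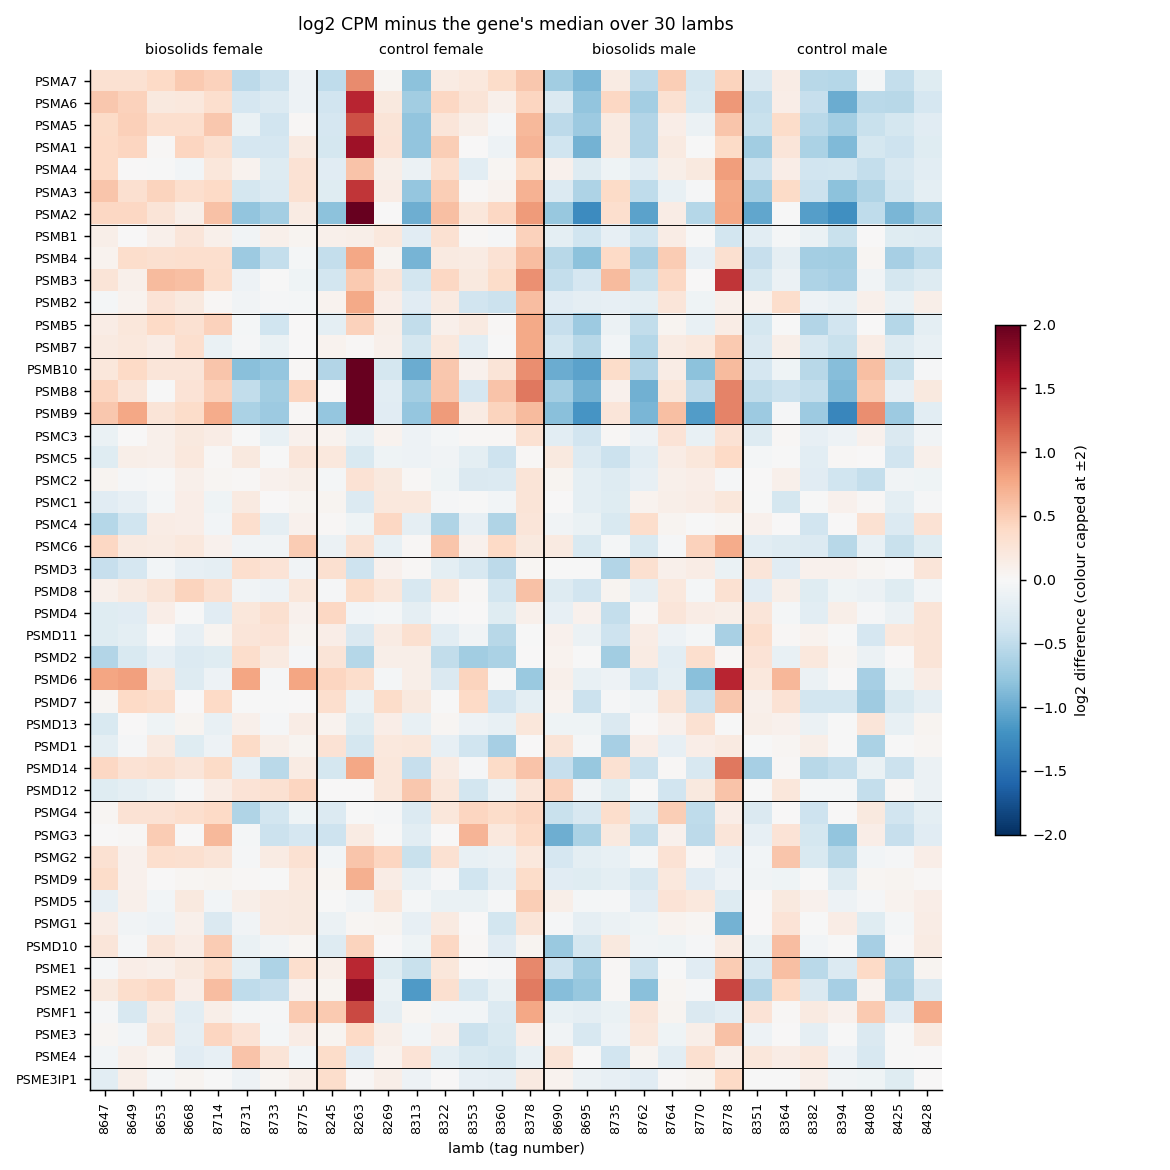
Each cell gives the log2 CPM of a gene in a lamb minus the gene's median over 30 lambs, with genes ordered by role and lambs by group; colour is capped at 2 in either direction. Dark red marks control female 8263 in most of the alpha ring, the immunoproteasome and PSME1, PSME2 and PSMF1, while the regulatory particle stays pale in most lambs.

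The first comparison was biosolids against control females. At an adjusted p under 0.05 (edgeR, quasi-likelihood, Benjamini-Hochberg over all genes), 0 of the 48 members were called, nor was any of the 17840 genes (0%), and DESeq2 and limma called 0 members. At an unadjusted p under 0.05 there were 2 members, PSMB8 and PSMB9, both lower, beside 652 genes (3.65%), 2.15% of all genes being lower. PSMB8 had a log2 fold change of -1.08 ± 0.44 (SE, unadjusted p = 0.0204) and PSMB9 of -1.38 ± 0.58 (SE, unadjusted p = 0.0232), and both had an adjusted p of 1.0. These log2 fold changes were -0.11 and 0.10 without control female 8263.

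The remaining members differed little between the female groups. The median log2 fold change of the family was -0.02, as was that of all genes tested. All 13 standard core subunits with counts had a lower mean in biosolids females, where 54.1% of all genes did, by a median log2 fold change of -0.07. With control female 8263 left out, 9 of these 13 had a higher mean. Of the regulatory particle, 13 of 17 had a higher mean, where 45.9% of all genes did, with a median of 0.04. The smallest p on the higher side belonged to the ATPase PSMC5, with 37.0, 47.3 and 51.8 CPM in biosolids females, against 33.1, 41.0 and 50.8 CPM in control females (log2 fold change 0.19 ± 0.11, unadjusted p = 0.0918). PSMD6, a lid subunit, followed with 0.37 ± 0.25 (unadjusted p = 0.155). Neither passed the test.

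Genes of class I presentation and interferon response took the same side as PSMB8 and PSMB9 in females, and none was called. Of 18 interferon-stimulated genes with counts, 18 had a lower mean in biosolids females (median log2 fold change -1.60), and 14 were at an unadjusted p under 0.05. IFIT3 and RSAD2, both antiviral effectors, had medians of 7.36 and 9.56 CPM in biosolids females, against 6.32 and 7.16 CPM in control females, among which lamb 8263 held 545 and 587 CPM. Of 10 class I genes, 9 had a lower mean (median -0.51). TAP1 had -0.92 ± 0.40 and TAP2 -0.65 ± 0.30. These values rest on lamb 8263: without it TAP1 had 0.08 and TAP2 -0.07, the class I list was split with 5 of 10 lower (median -0.01), and the interferon list had 14 of 18 lower (median -0.46) with 0 under an unadjusted p of 0.05. Of 12 leukocyte markers, 11 had a lower mean (median -0.23, and -0.06 without lamb 8263), and that lamb was the highest control female for their mean log2 CPM, 3.39 against a group median of 2.48. Of 6 macrophage markers, 5 had a lower mean, and CD68 was listed at 0 in all lambs. The summed CPM of the leukocyte list ran over 113 to 198 in biosolids females, against 96.1 to 315 in control females. For stellate cell and fibroblast markers, 8 of 8 means were higher in biosolids females (median 0.30, and 0.33 without lamb 8263), with a summed CPM of 217 to 626, against 201 to 345 in control females. The part of these cells in the result was not tested.

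In male lambs, again 0 of 48 members and 0% of all genes were called. At an unadjusted p under 0.05 there were 3 members, all higher, beside 970 genes (5.44%), 3.29% of all genes being higher. PSMC6, an ATPase of the regulatory particle, had 11.7, 14.2 and 24.1 CPM in biosolids males, against 9.75, 12.1 and 13.0 CPM in control males (log2 fold change 0.42 ± 0.14, unadjusted p = 0.00504, adjusted p = 0.816 by edgeR). The groups overlapped, and the highest lamb was 8778. PSMB3, a structural beta subunit, had 18.8, 26.6 and 71.0 CPM in biosolids males, against 16.7, 20.7 and 25.2 CPM in control males (0.64 ± 0.23, unadjusted p = 0.00978). PSMA4, of the alpha ring, had 13.6, 17.3 and 29.1 CPM in biosolids males, against 11.7, 12.6 and 17.8 CPM in control males (0.40 ± 0.15, unadjusted p = 0.0113). Without lamb 8778, 1 member in place of 3 was under 0.05, and PSMC6, PSMB3 and PSMA4 had log2 fold changes of 0.32, 0.37 and 0.27.

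All 7 alpha ring genes had a higher mean in biosolids males, where 51.3% of all genes did, with a median log2 fold change of 0.32. That median was 0.18 without 8778. Cytosolic ribosomal protein genes took the same side: 72 of 74 had a higher mean, with a median of 0.42, which was 0.23 with 70 of 74 higher without 8778. All 10 hepatocyte markers had a lower mean in biosolids males (median -0.20), and the part of either list in the result was not tested. Of the regulatory particle 11 of 17 had a higher mean, with a median of 0.09, which was also the median of the family, beside 0.01 for all genes. Without 8778 the median was 0.02 for the regulatory particle and 0.01 for the family. On the lower side the smallest p belonged to PSMF1, an inhibitor of the core particle, with 70.9, 78.7 and 103 CPM in biosolids males, against 74.6, 98.3 and 146 CPM in control males (-0.35 ± 0.20, unadjusted p = 0.0882), and to PSMD11, a lid subunit (-0.23 ± 0.14, unadjusted p = 0.107). The immunoproteasome genes stood near 0, at 0.07 ± 0.47 for PSMB8, 0.11 ± 0.62 for PSMB9 and -0.03 ± 0.36 for PSMB10. Without lamb 8778 all 3 lay on the lower side, with a median of -0.21, and without control male 8408 all 3 lay on the higher side, at 0.22, 0.44 and 0.15. Of 18 interferon-stimulated genes, 18 had a lower mean in biosolids males (median -0.76), where 48.7% of all genes did, and 0 had an unadjusted p under 0.05. Control male 8428 was the highest of its group for their mean log2 CPM, 6.19 against a group median of 4.37. Of 10 class I genes, 9 had a lower mean (median -0.19). Their part in the result was not tested.

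Averaged over both sexes, 0 of 48 members and 0% of all genes were called, and 2 members had an unadjusted p under 0.05, beside 768 genes (4.3%). Higher ones made up 2.11% of all genes and lower ones 2.2%. PSMC6 was on the higher side (0.22 ± 0.10, unadjusted p = 0.0299) and PSMF1 on the lower (-0.33 ± 0.14, unadjusted p = 0.0196), both at an adjusted p of 0.943 by edgeR. Without biosolids male 8778, PSMC6 had an average log2 fold change of 0.17. PSMF1 had 69.9, 85.6 and 125 CPM in biosolids females, against 72.2, 86.4 and 217 CPM in control females, and lamb 8263 held the highest value. Without that lamb its average log2 fold change was -0.22. The difference between the sexes in the exposure effect, male minus female, was tested as an interaction: 0 of 48 members and 0% of all genes were called, and 3 members (PSMA4, PSMB3 and PSMC6, unadjusted p = 0.0366, 0.0362 and 0.0382) were under 0.05, all with the larger value in males, beside 648 genes (3.63%), 2.23% in that direction. Without control female 8263, and likewise without biosolids male 8778, none of the 3 was. For PSMB8 and PSMB9 the interaction was 1.15 ± 0.64 and 1.49 ± 0.84, and 0.19 and 0.03 without control female 8263.

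**Figure D4:**
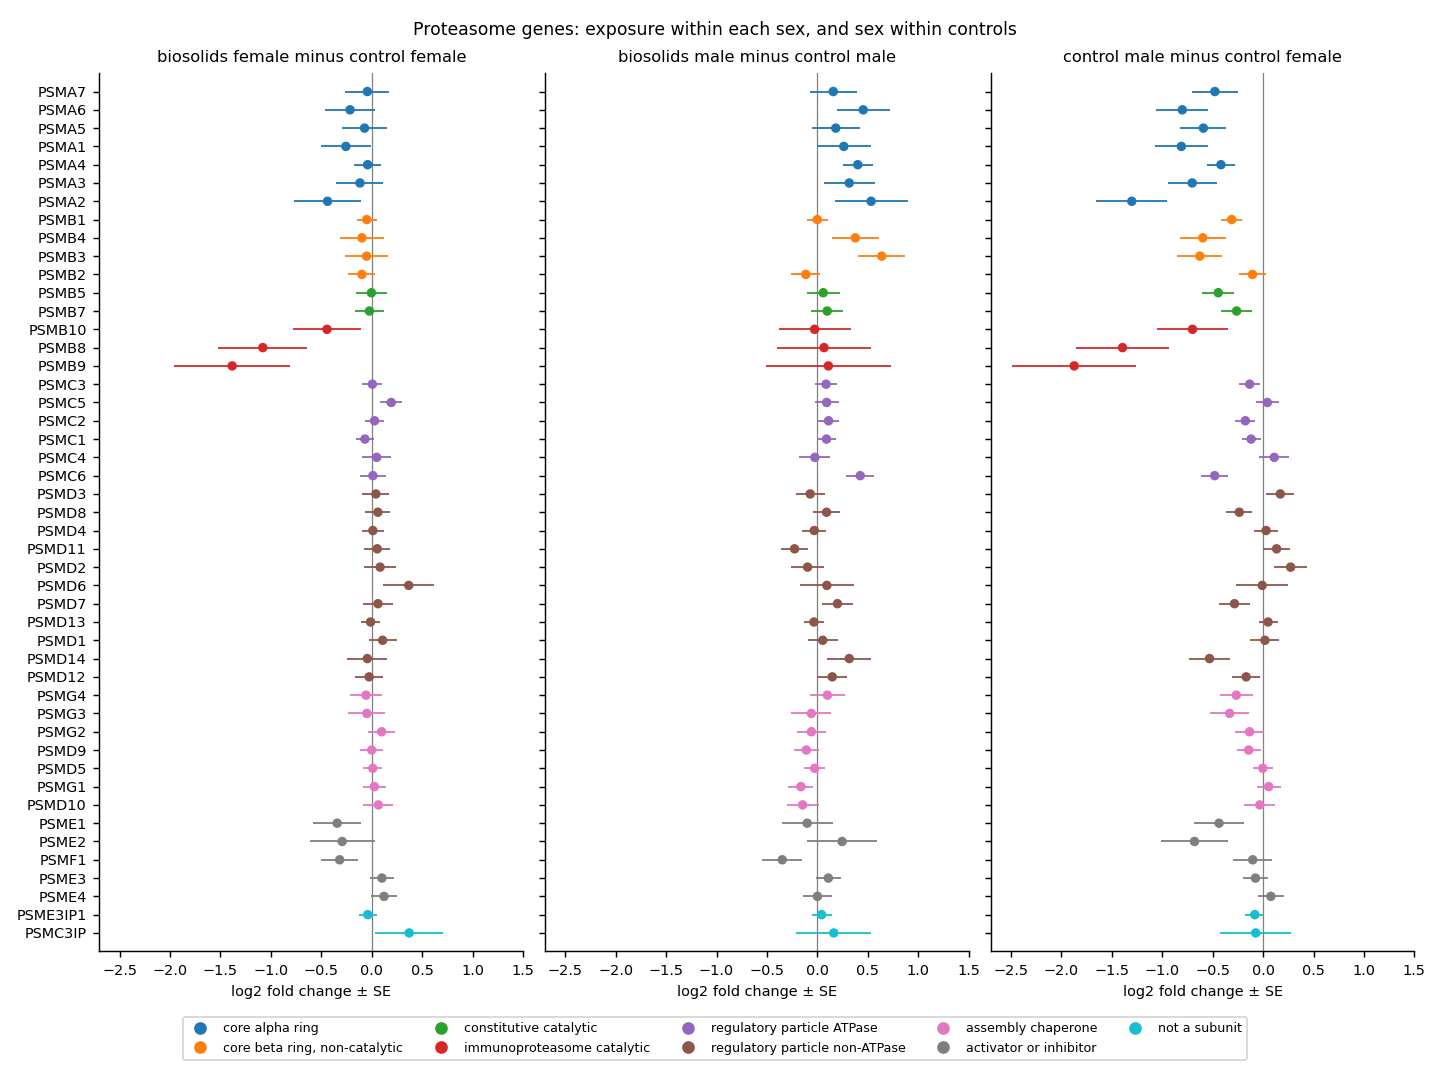
Log2 fold change with its SE (bar) of each proteasome gene for exposure in females, exposure in males and sex within controls, ordered and coloured by role; PSMA8, PSMB6 and PSMB11 are not drawn. PSMB8 and PSMB9 lie far to the left for exposure in females and for sex, the alpha ring lies to the left in the panel of sex, and no gene passed the adjusted threshold by edgeR in any panel, while DESeq2 called PSMA2 for sex in controls.

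The wider differences in the family lay between the sexes among controls. No member was called by edgeR (smallest adjusted p = 0.198, for PSMA2), beside 15 genes of all tested (0.0841%), and DESeq2 called 1, PSMA2 (adjusted p = 0.0411). At an unadjusted p under 0.05 there were 15 of 48 members, all lower in control males, beside 3370 of all genes (18.9%), of which 1989 (11.1%) were lower. PSMA2, of the alpha ring, had 11.7, 14.5 and 27.2 CPM in control males, against 13.9, 34.0 and 109 CPM in control females (log2 fold change -1.30 ± 0.35, unadjusted p = 0.000942). The groups overlapped. Without control female 8263 the log2 fold change was -0.92. PSMC6 had 9.75, 12.1 and 13.0 CPM in control males, against 13.0, 15.9 and 21.1 CPM in control females (-0.48 ± 0.14, unadjusted p = 0.00126). Its ranges barely met.

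The difference was uneven over the complex. All 7 alpha ring genes were lower in control males by mean, where 54.6% of all genes were, by a median of -0.70 on the log2 scale, and all 7 had an unadjusted p under 0.05. Of the 13 standard core subunits, 13 had a lower mean and 11 an unadjusted p under 0.05. The exceptions were PSMB2 (-0.10 ± 0.14) and PSMB7 (-0.26 ± 0.15). PSMB5 had -0.44 ± 0.16. The regulatory particle was split, with 8 higher and 9 lower, a median of -0.01 and 2 members under 0.05. On its higher side stood PSMD2, of the base (0.27 ± 0.16), and PSMD3, of the lid (0.17 ± 0.14). The 2 lower members under 0.05 were PSMC6 and PSMD14, the subunit that cuts ubiquitin off (-0.53 ± 0.21, unadjusted p = 0.0158). Without control female 8263, 5 of 7 alpha ring genes stayed under 0.05 with a median of -0.47, and 12 of 48 members did. Without control male 8408 the count over the family was 17 of 48, and for exposure in males 4 of 48 with 1 of them lower. With 2 surrogate variables in the model, 1 of 7 alpha ring genes was under 0.05 for sex in controls, with a median of -0.17.

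Apart from PSMA4, the alpha ring genes had higher medians in both female groups than in both male groups. PSMA1 had 10.6, 20.2 and 26.6 CPM in biosolids males, against 16.1, 24.4 and 27.6 CPM in biosolids females, and 11.1, 15.4 and 24.1 CPM in control males, against 11.9, 22.6 and 65.9 CPM in control females. PSMA6 had 17.9, 25.4 and 56.8 CPM in biosolids males, against 24.5, 35.6 and 44.8 CPM in biosolids females, and 15.6, 22.3 and 33.9 CPM in control males, against 19.2, 36.3 and 89.4 CPM in control females. Control female 8263 held the top control value in both, as it did in PSMA2, PSMA3, PSMA5 and PSMA7. Between control males and control females the log2 fold changes were -0.81 ± 0.26 for PSMA1, -0.70 ± 0.24 for PSMA3, -0.59 ± 0.23 for PSMA5, -0.80 ± 0.26 for PSMA6 and -0.48 ± 0.23 for PSMA7. In biosolids lambs the same genes lay between -0.34 (PSMA5) and -0.13 (PSMA6), and no interaction of exposure and sex was under an unadjusted p of 0.05 among them.

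Several regulatory particle members differed little between groups, and 3 are given as examples chosen after their values were seen. PSMD13, a lid subunit, had group medians of 45.8 CPM in biosolids females, 45.0 CPM in control females, 45.8 CPM in biosolids males and 47.6 CPM in control males. PSMC1, an ATPase, had 39.4, 40.6, 42.0 and 39.5 CPM in the same groups, and PSMD4, a receptor for ubiquitin chains, 43.9, 41.9, 45.2 and 42.1 CPM. Others did differ in median. PSMD14 had medians of 15.4 CPM in biosolids males, against 23.1 CPM in biosolids females, and of 14.2 CPM in control males, against 22.03 CPM in control females. PSMD2 had medians of 87.7 CPM in biosolids males, against 74.5 CPM in biosolids females, and of 88.6 CPM in control males, against 73.8 CPM in control females. PSMD6 had 66.5 CPM at the median in biosolids females, against 47.5 CPM in control females. Its lowest, median and highest values were 25.6, 41.1 and 132 CPM in biosolids males, against 28.9, 46.1 and 72.4 CPM in control males, its highest lamb being 8778.

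Ribosomal protein genes took the side of the alpha ring here too: 74 of 74 had a lower mean in control males, by a median of -0.49 on the log2 scale, and their mean log2 CPM had a median of 6.23 in control males and 7.08 in control females. Single lambs crossed the sexes. Control females 8245 and 8313 had 6.43 and 6.06, and for the alpha ring 4.20 and 3.90, where the control male median was 4.12. Control male 8364 had 7.13, and 4.80 for the alpha ring, where the control female median was 4.74. In that lamb 0.299% of counts fell on ribosomal RNA, the lowest share of all lambs. Of 10 hepatocyte markers 8 had a higher mean in control males (median 0.37), where 45.4% of all genes did. All 8 stellate cell and fibroblast markers had a higher mean in control males (median 0.36). Of these, 4 were under an unadjusted p of 0.05 by edgeR, where 1381 of 17840 genes were on that side. Their summed CPM was 392 to 590, against 201 to 345 in control females, so that the sums did not overlap. How often sums of other genes do so was not counted. Of 7 endothelial markers 5 had a higher mean in control males, and of 5 cholangiocyte markers 2 did. The part of these lists in the result was not tested. Among the immunoproteasome genes PSMB8 had -1.39 ± 0.46, PSMB9 -1.87 ± 0.61 and PSMB10 -0.70 ± 0.35. Without control female 8263 they had -0.44, -0.41 and -0.30, and none was under an unadjusted p of 0.05. The interferon list went the same way, with 18 of 18 lower in control males (median -1.36), and 10 of 18 without lamb 8263 (median -0.07). Of the leukocyte markers 11 of 12 were lower (median -0.25), and 10 of 12 without that lamb (median -0.09). Their part in the result was not tested.

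In the biosolids lambs the log2 fold changes between males and females were closer to 0 for most of the core, and the test of that difference is the interaction above, which called 0 members. No member was called, beside 17 genes of all tested (0.0953%), and 4 members had an unadjusted p under 0.05, beside 865 genes (4.85%). They were PSMB1, PSMB5, PSMD9 and PSMG2, all lower in males, where 2.46% of all genes were, and without lamb 8778 there were 7. PSMB1, a structural beta subunit, had 53.0, 61.3 and 77.9 CPM in biosolids males, against 66.5, 75.1 and 82.6 CPM in biosolids females (-0.26 ± 0.10, unadjusted p = 0.0160). PSMB5 had -0.38 ± 0.16 (unadjusted p = 0.0223). Of 48 members 40 had a lower mean in biosolids males, where 50% of all genes did, with a median of -0.14, which was -0.24 without lamb 8778. The alpha ring had a median of -0.28, with 6 of 7 lower. PSMD10, the only member on the X chromosome, had -0.24 ± 0.15 in biosolids lambs and -0.03 ± 0.15 in controls.

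**Figure D5:**
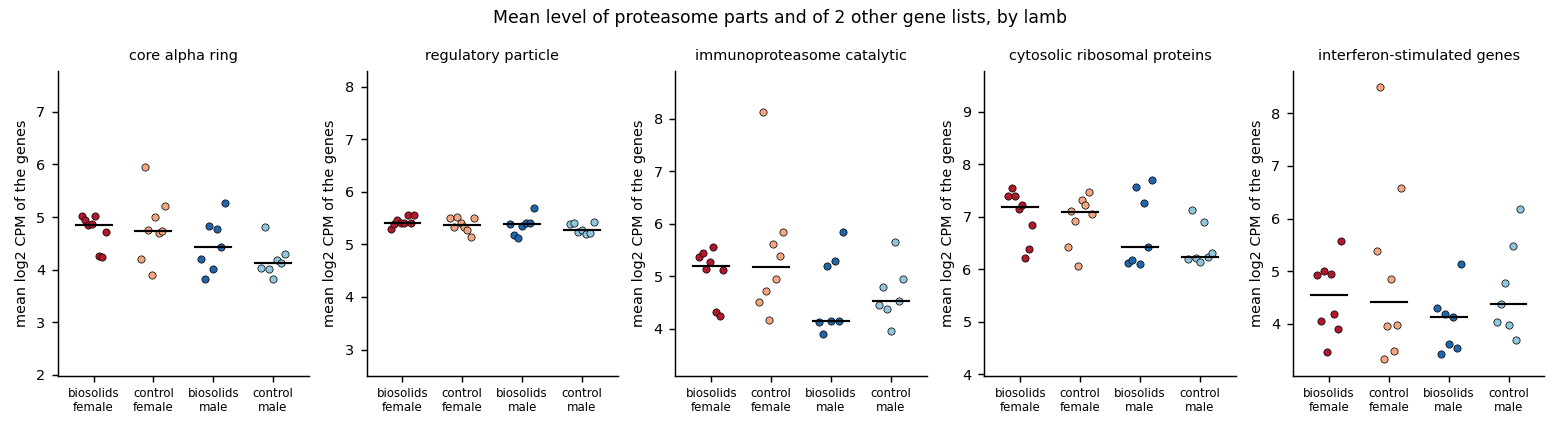
Mean log2 CPM per lamb of the alpha ring (7 genes), the regulatory particle (17), the immunoproteasome genes (3), ribosomal proteins (74) and interferon-stimulated genes (18), with a bar at each group's median and all panels over the same span. The regulatory particle is the tightest, lamb 8263 is the high point of the immunoproteasome and interferon panels, and the female medians of the alpha ring and ribosomal proteins lie above the male ones.

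The activators and the inhibitor followed these patterns in part. PSME1 had 80.9, 135 and 159 CPM in biosolids females, against 91.3, 130 and 354 CPM in control females, and 76.5, 106 and 178 CPM in biosolids males, against 82.0, 103 and 189 CPM in control males. PSME2, its partner, had 19.2, 30.7 and 41.8 CPM in biosolids females, against 12.5, 26.6 and 94.2 CPM in control females, and 15.1, 26.8 and 68.9 CPM in biosolids males, against 17.2, 22.3 and 36.0 CPM in control males. Lamb 8263 was the highest of all 30 for both. PSME3, the nuclear activator, and PSME4, which acts in chromatin and spermatogenesis, passed the test in no comparison, with log2 fold changes between -0.12 and 0.12. Of the chaperones PSMG1, PSMG2, PSMG3 and PSMG4, which pair to build the alpha ring, group medians lay at 6.44 to 6.92 CPM, 9.65 to 13.1 CPM, 14.3 to 21.6 CPM and 33.6 to 45.0 CPM. The largest of their log2 fold changes was that of PSMG3 in biosolids males against biosolids females (-0.34 ± 0.19, unadjusted p = 0.0863).

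The summed TPM of the family had a median of 4127 in biosolids females and 3947 in control females, and of 3219 in biosolids males and 2927 in control males. The ranges were 3012 to 4529 in biosolids females, 2867 to 8183 in control females, 2585 to 4762 in biosolids males and 2715 to 3512 in control males. All groups overlapped, and the value of 8183 was lamb 8263. No member had groups without overlap in any comparison. Of all genes tested, the biosolids group lay wholly above or below its control for 0% in females, and wholly above for 0.0392% and below for 0.0168% in males. Males lay wholly above females for 0.151% and below for 0.0617% in controls, and for 0.0504% and 0.0168% in biosolids lambs.

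Of 19 other proteasome genes with counts (receptors, maturation factors and transcriptional regulators outside the prefix), none was called in any comparison by edgeR. At an unadjusted p under 0.05 there were 0 for exposure in females, where 3.65% of all genes were. There were 4 for exposure in males (3 higher and 1 lower), where 5.44% of all genes were, and 0 without lamb 8778. For sex in controls there were 6 (2 higher and 4 lower), where 18.9% of all genes were. POMP, the maturation factor that helps the core particle close, had 8.21, 11.8 and 27.7 CPM in biosolids males, against 7.78, 8.53 and 17.6 CPM in control males (0.57 ± 0.25, unadjusted p = 0.0332). In control males against control females it had -0.83 ± 0.25 (unadjusted p = 0.00193). NFE2L1, the factor that raises proteasome genes when the protease is blocked, had 121, 212 and 232 CPM in biosolids males, against 156, 218 and 260 CPM in control males, and its female groups had medians of 135 CPM in biosolids and 139 CPM in control lambs. Among 6 genes of ubiquitin and its activation, RPS27A, which encodes ubiquitin fused to a ribosomal protein, had 1.49 ± 0.53 for exposure in males (unadjusted p = 0.00878), and UBB, a polyubiquitin gene, had 0.68 ± 0.28 (unadjusted p = 0.0237). Neither passed the adjustment (0.816 by edgeR), and UBB reached 152 CPM in lamb 8778, where the group median was 28.5 CPM. Without that lamb the log2 fold changes were 0.59 for RPS27A, 0.08 for UBB and 0.40 for POMP.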

How the data were processed

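The labels gave exposure and sex, which make the 4 groups. Lambs go by their tag number. The proteasome members and all gene lists were chosen with earlier results of these data known. The authors deposited raw counts per gene, not normalized, with 1 column a lamb and 0 columns left without one. STAR, featureCounts 1.5.0-p3, Trimmomatic, MultiQC and FastQC are named in the submitters' processing notes. Their settings, strand among them, are not given in the sources used here, and values of overlapping genes are therefore uncertain. Per the labels' protocols, RNA came from frozen liver and libraries from a TruSeq RNA kit.

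7 genes broken over 25 lines were joined. 28862 of 31304 genes matched RefSeq (assembly ARS-UI_Ramb_v3.0) by symbol, and start and end were identical in 28855 of 28855 compared. Coordinates refer to that assembly. 25 genes were counted as ribosomal RNA.

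Differences were tested with edgeR 4.0.16 in R 4.3.3 (filterByExpr with 4 groups, TMM, 1 mean a group, robust quasi-likelihood, 26 residual degrees of freedom, biological coefficient of variation 35.2%), with Benjamini-Hochberg adjustment over 17840 genes and calls at 0.05. Each SE is the log2 fold change over the root of F. CPM use TMM-scaled library sizes, and log2 CPM a prior count of 2. Only the summed chromosome Y CPM are scaled by the total counts outside ribosomal RNA, without TMM. Pairs of genes were permuted within groups (two-sided, 100000 resamples). Of 12 pairs planned, 9 were computed, since PSMB6 had no counts. The tests were checked on simulated data. Alternatives were other scaling, DESeq2 1.42.0, limma 3.58.1 voom, filters, ribosomal RNA left out, surrogate variables (sva 3.50.0), thresholds, only the groups compared, and each lamb left out. Leaving out 8263 and 8778 together, the partner of PSMB9 and lengths of unshared exon bases were chosen after seeing the data.

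The genes named were the 6 catalytic genes, the activators, the inhibitor and the PSMG genes, in each comparison the 2 members of smallest p in each direction, the highest and lowest of each role by TPM, and the 2 genes of smallest p in a list. The remaining alpha ring genes, PSMB2, PSMC1, PSMD4, PSMD6, PSMD9, PSMD10, PSMD13, PSMD14 and NFE2L1 were also named where a count or a role called for it, after their values were seen. The labels name no batch. The tag numbers of the biosolids and control lambs form separate ranges, and any difference of flock or day of processing cannot be told apart from exposure. P-values of the comparisons set a difference between groups against the spread between lambs. Permutation p-values concern pairs of genes across lambs and no difference between groups.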

Additional observations from a re-analysis of the deposited data

Results flagged for a closer look

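Of 108 sets of values (a gene or log2 ratio within a group), 15 held a lamb whose gap to the next exceeded Dixon's limit for the size of the group. The limit is set for about 1 in 20 among independent sets of normally distributed values. These sets share lambs and genes, and CPM are skewed, so the count cannot be set against that rate. Most were 1 of 2 lambs. Control female 8263 stood high with 431 CPM of PSMB8, 299 CPM of PSMB9, 166 CPM of PSMB10 and 109 CPM of PSMA2, where the next control females had 87.6, 31.4, 79.7 and 49.6 CPM. Its log2 ratios of PSMB8 to PSMB5 (2.27), PSMB10 to PSMB7 (2.79) and PSMB9 to PSMB5 (1.75) also stood apart. Biosolids male 8778 stood high with 29.1 CPM of PSMA4, 71.0 CPM of PSMB3, 132 CPM of PSMD6 and 68.9 CPM of PSME2, and low with 3.55 CPM of PSMG1. Its library held 2335475 counts outside ribosomal RNA. The 3 others were control male 8364 with 17.8 CPM of PSMA4, control male 8408 with 33.2 CPM of PSMB9 and control female 8378 with 39.3 CPM of PSMB7.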

How the results depend on the processing

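Among 244 recomputed counts of called members over the 6 comparisons, 243 gave 0. The exception was DESeq2 in control males against control females, which called 1 member, PSMA2 (log2 fold change -1.31, adjusted p = 0.0411). Of 4108 recomputed log2 fold changes of named members, 186 changed sign, none of them called. No paired analysis was possible because the groups share no tag numbers and litters are not labelled.

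Counts at an unadjusted p under 0.05 moved with single lambs: with each lamb left out in turn they ran over 0 to 3 for exposure in females (0 without control female 8263), 1 to 5 in males (1 without biosolids male 8778), 1 to 3 over both, 0 to 6 for the interaction, 12 to 21 for sex in controls and 1 to 7 in biosolids lambs. With both lambs left out, a choice made after seeing the data, they were 1, 2, 0, 1, 12 and 10. In females, voom put 5 of 7 alpha ring genes on the higher side, where edgeR had 0. The cause was not tested. Depth limits PSMB11 and PSMA8, and lamb 8778 throughout.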
